A study of Mus musculus with 6 samples.

Results

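Nucleus-like droplets are barcodes whose RNA is rich in Malat1, a long noncoding RNA held in nuclear speckles, and poor in RNA of the mitochondrial genome. They were chosen by these values in GL261-GSCs replicates 3 and 4 among barcodes with at least 2000 unique molecular identifiers (UMIs, each counting 1 captured RNA molecule) and 500 genes. Members had under 1% of their UMIs in the 37 mitochondrially encoded genes and at least 1.5% in Malat1. The rule found 331 droplets among 12678 barcodes of these libraries, 145 of 7999 in replicate 3 and 186 of 4679 in replicate 4, and 33908 barcodes passed the minimum in the whole series. Comparison droplets came from the same libraries, had 1% to under 3% mitochondrial UMIs and under 1.5% Malat1, and numbered 3413 in replicate 3 and 1574 in replicate 4.

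The series measured gene expression in single droplets of the mouse glioma line GL261 (2 libraries), grown in a differentiation medium with FCS, and of GL261-GSCs (4 libraries), which were derived from it, are labelled as glioblastoma stem cells and were grown in a defined medium for such cells. No treatment, genotype change or time point separates the libraries. Accutase dissociation was followed by a lysis buffer with 0.3% of the detergent IGEPAL CA-630 in all 6 libraries, 5' libraries were made with a 10x Genomics kit, and the labels name cells or nuclei without saying which were loaded. The libraries held 80899005 to 121309232 UMIs each. Nothing in the labels says that replicates came from separate cultures, so the spread between these libraries may be technical, and p-values reach no further than these libraries. The main gene-by-gene test below compared nucleus-like with comparison droplets within each library. Its p-values rest on how far that difference varied between libraries, as a spread shared between genes. They were not measured against each gene's own variation between libraries.

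A nucleus holds newly made and unspliced transcripts together with noncoding RNAs that stay on chromatin or in nuclear bodies. The cytoplasm holds most finished mRNA, and above all the short, abundant mRNAs of ribosomal proteins, while transcripts of the mitochondrial genome lie inside mitochondria. Detergent dissolves the plasma membrane before the nuclear envelope, which is why nuclei can be prepared from cultured cells this way.

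The values that chose the droplets are given as a description only. Malat1 made up a median of 2.68% of the UMIs of a nucleus-like droplet in replicate 3 and 2.37% in replicate 4, with highest values of 11.11% and 8.92%. In comparison droplets the medians were 0.31% and 0.54%. Mitochondrial UMIs had medians of 0.13% and 0.49% in nucleus-like droplets, and 1.28% and 1.29% in comparison droplets. The Malat1 values formed a continuous range across the limit. Just inside it, at 1.5% to under 1.6%, lay 11 droplets of replicate 3 and 20 of replicate 4. Just outside, at 1.4% to under 1.5%, lay 19 and 28 barcodes with under 1% mitochondrial UMIs. At the mitochondrial limit, 0 and 16 droplets lay at 0.9% to under 1%, and 1 and 14 barcodes with enough Malat1 at 1% to under 1.1%. The class is a range of values set by these limits. No barcode was nucleus-like in more than 1 library. Of the barcodes past the minimum, 50 were present in both replicates 3 and 4, among them 3 that were nucleus-like in replicate 3.

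**Figure D1:**
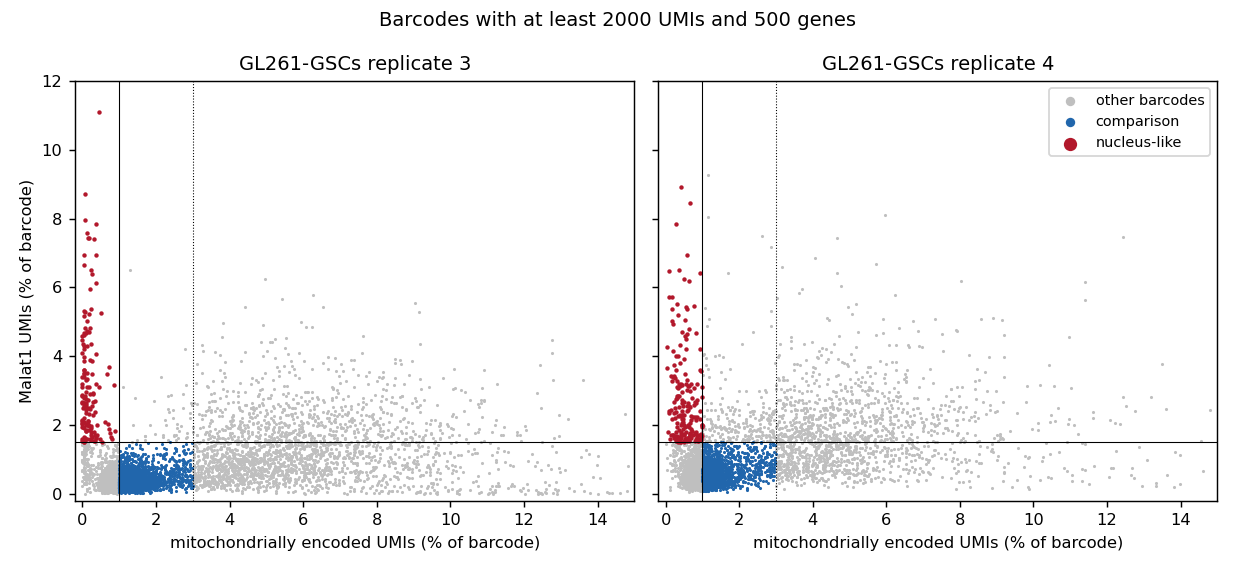
Each point is 1 barcode with at least 2000 UMIs and 500 genes, with its percentage of mitochondrially encoded UMIs on the horizontal axis and of Malat1 UMIs on the vertical axis, for GL261-GSCs replicates 3 and 4. Lines mark the limits of the classes at 1% and 3% mitochondrial UMIs and at 1.5% Malat1. Nucleus-like droplets (red) run from the Malat1 limit up to 11.11% in replicate 3 and 8.92% in replicate 4, and 75 and 14 barcodes lie beyond the axes.

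Nucleus-like droplets held fewer UMIs than comparison droplets, but more different genes at the same number of UMIs. Their median was 2435 UMIs in replicate 3 and 2413.5 in replicate 4, against 12735 and 9304 in comparison droplets, and the median number of genes was 1715 and 1721.5 against 4074 and 3385. After each droplet was thinned at random to 2000 UMIs, the order reversed: nucleus-like droplets held a median of 1479 and 1474.5 genes, and comparison droplets 1193 and 1188.5. The same order was seen in all 5 libraries with at least 50 droplets of each class. The difference over these libraries was 230.5 genes ± 58.1 (SD, n = 5 libraries), with an exact 2-sided sign-flip permutation p of 0.0625, the smallest that 5 libraries allow. The difference in median UMIs, -9795 ± 1782 (SD, n = 5), and in median genes before thinning, -2257 ± 337 (SD, n = 5), had the same direction in every library and the same exact permutation p of 0.0625, which was also the value adjusted over the 3 measures.

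Ribosomal protein mRNA, which the rule did not use, was low in these droplets. In the summed UMIs of the class it made up 6.28% in replicate 3 and 8.01% in replicate 4, against 19.55% and 19.58% in comparison droplets. Droplets also under 1% in mitochondrial RNA, but with Malat1 under 1.5%, had 19.81% and 20.26%, close to the comparison droplets. Low values were not particular to the nucleus-like class, because droplets with at least 3% mitochondrial UMIs had 4.96% and 5.53% when Malat1 was at or above 1.5%, and 6.27% and 6.25% when it was below. Within the nucleus-like class the share fell with more Malat1. It was 7.72%, 6.52% and 5.12% in replicate 3 for droplets with Malat1 at 1.5% to under 2%, 2% to under 3% and at least 3% (39, 45 and 61 droplets). In replicate 4 it was 11.75%, 5.91% and 5.14% (66, 57 and 63 droplets).

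**Figure D2:**
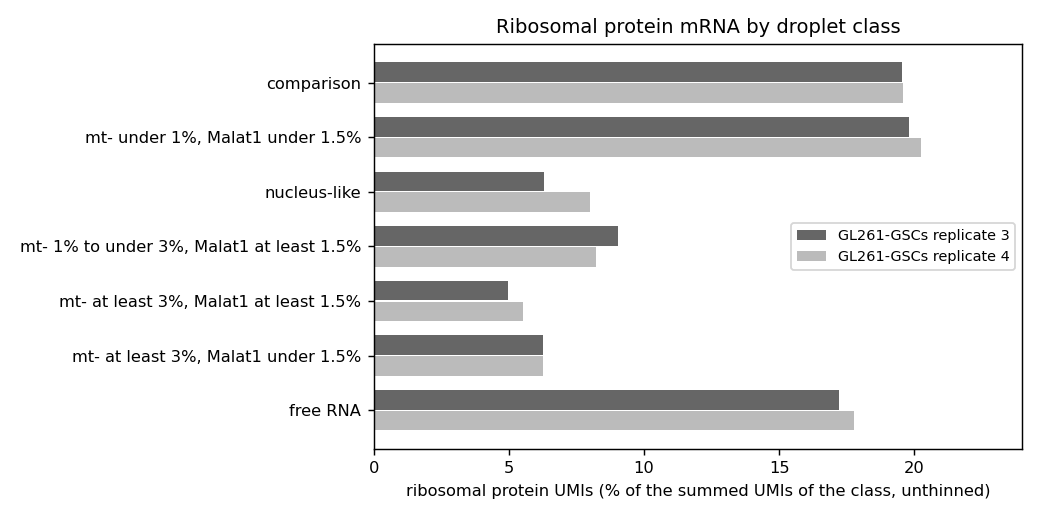
Bars give the percentage of summed, unthinned UMIs in ribosomal protein genes for each droplet class, defined on mitochondrial (mt-) and Malat1 UMIs, and for free RNA, in GL261-GSCs replicates 3 and 4. Nucleus-like droplets stand at 6.28% and 8.01%, comparison droplets at 19.55% and 19.58%, and droplets with at least 3% mitochondrial UMIs lie between 4.96% and 6.27%.

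Free RNA, read from barcodes of 100 to under 1000 UMIs, had a median of 542 UMIs in replicate 3 and 614 in replicate 4, against the 2435 and 2413.5 of nucleus-like droplets. Ribosomal protein genes made up 17.22% and 17.75% of its UMIs, nearer to the comparison droplets. Replicate 4 stood apart in its free RNA: Malat1 made up 1.35% there and 0.32% in replicate 3, and mitochondrial genes 2.04% and 0.57%, the latter nearer to the nucleus-like (0.22%) than to the comparison droplets (1.38%) of replicate 3. The free RNA of replicate 4 lay close to the Malat1 limit of the rule. Per barcode, ribosomal protein genes gave a mean of 179 and 237 UMIs in nucleus-like droplets and 93.1 and 108 UMIs in free RNA. Nuclear noncoding RNAs other than Malat1 gave 33.5 and 36.6 UMIs per nucleus-like droplet, and 0.28 and 0.68 in free RNA. In comparison droplets of replicate 3 these RNAs gave a mean of 11.5 UMIs, so there the excess was also one in UMIs per droplet. The part of free RNA in the differences below was not tested.

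Gene by gene, the nucleus-like sums were compared with the comparison sums of the same library after thinning, with the library as a block, in edgeR's quasi-likelihood test with Benjamini-Hochberg adjustment. A gene was called at an adjusted p under 0.05. Droplets were sorted on part of the same counts, and Malat1 and the mitochondrial genes are left out of every count of calls. Of 11198 genes, 6675 were called (59.6%), 3214 higher in nucleus-like droplets (28.7%) and 3461 lower (30.9%). Changes of at least 2-fold were seen in 2343 of the higher and 2619 of the lower genes, and 6657 of the called genes moved the same way in both libraries. DESeq2 called 3914 genes, 1833 higher and 2081 lower. The balance of rises and falls leaned on the filter on low counts, which a gene can pass in a single class. Of all genes, 1300 passed its limit in both nucleus-like sums and not in both comparison sums (916 higher, 0 lower). Another 592 passed in both comparison sums and not in both nucleus-like sums (0 higher, 324 lower). Of the 9758 past it in both comparison sums, 23.5% were higher and 35.5% lower. Of the 10466 past it in both nucleus-like sums, 30.7% were higher and 30.0% lower. The balance also depended on the scaling. TMM scaling, used throughout, gave all genes together a median log2 fold change of -0.03, whereas scaling by total UMIs alone put it at 0.59 and called 6973 genes (62.3%), 5074 higher (45.3%) and 1899 lower (17.0%). Log2 fold changes under TMM scaling are relative to the typical gene, and those given for scaling by total UMIs are to be set against its 0.59. When the comparison droplets were instead those with under 1% mitochondrial UMIs, so that only Malat1 separated the classes, 5896 of 10810 genes were called (54.5%), 2789 higher (25.8%) and 3107 lower (28.7%). With 6675 genes called, a single call carries little weight. Sizes and counts within gene groups are read against the percentages of all tested genes, which include those passing the filter in a single class.

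Of the gene lists described here, nuclear noncoding RNAs had the largest median rise. Their share of thinned UMIs was 1.25% and 1.34% in nucleus-like droplets of replicates 3 and 4, and 0.094% and 0.160% in comparison droplets. Of 25 such RNAs other than Malat1, 15 passed the filter on low counts; 13 rose and 2 fell, and the median log2 fold change was 2.36. The other 10, among them Meg3 and Xist, had too few UMIs to test, and Meg3 had 0 UMIs in all 4 sums. Malat1 was how the droplets were found, and the list was chosen with earlier results of these data known. Its rise is a description and no independent check of the class name. Of the 14 past the filter limit in both comparison sums, 12 rose and 2 fell, with a median of 2.34.

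Neat1, the RNA scaffold of paraspeckles (chromosome 19, 5824708 to 5845478, GRCm38), stood at 2012 and 2263 TMM-scaled CPM (UMIs scaled to a common library total) in nucleus-like droplets of replicates 3 and 4. Comparison droplets had 190 and 368 CPM. The log2 fold change was 3.01 (SE 0.18, adjusted p = 5.77e-58). Kcnq1ot1, an imprinted RNA that silences its neighbours on chromosome 7 (143203458 to 143296549), had 705 and 812 CPM against 63.6 and 92.7 (log2 fold change 3.30, SE 0.14, adjusted p = 7.25e-111). The excess of Neat1 and of Kcnq1ot1 was larger in replicate 3, where the comparison droplets were lower. Dleu2, the host transcript of miR-15a and miR-16-1 (chromosome 14, 61602839 to 61682373), had 322 and 323 CPM against 21.8 and 33.97. Its log2 fold change of 3.57 (SE 0.17, adjusted p = 2.56e-93) was the highest of all genes that the naming rule admitted.

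Further noncoding RNAs rose by similar amounts. Lncpint (chromosome 6) had 201 and 268 CPM in nucleus-like droplets and 16.2 and 32.8 in comparison droplets. Pvt1, a neighbour of Myc on chromosome 15, had 724 and 725 CPM against 84.3 and 113. Mir99ahg, host of a miR-99a and let-7c cluster on chromosome 16, had 171 and 93.8 CPM against 17.9 and 15.8, with replicate 3 the higher. Their log2 fold changes were 3.31, 2.89 and 2.99. Firre, Airn, Tug1, Ftx, Jpx and Sox2ot, which act in or at chromatin or lie in the X inactivation centre or over Sox2, rose by 1.83 to 2.46 on the log2 scale. The exceptions were Pantr1, with a log2 fold change of -1.50, and H19, a spliced and exported RNA. H19 had 3 UMIs in nucleus-like droplets and 149 in comparison droplets, a ratio of 5.12 (95% counting interval 1.72 to 25.1). Kcnq1ot1, Airn and other antisense RNAs overlap genes on the opposite strand, and the sources used here do not say whether the counting used strand.

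The size of these rises depended on droplet depth. When both classes were limited to droplets of 2000 to under 4000 UMIs (an alternative chosen after seeing the data), 2363 of 6856 genes were called (34.5%). Of the 6856, 1078 were higher (15.7%) and 1285 lower (18.7%), and counts in this range are read against these shares. The log2 fold change of Dleu2 was then 1.89, of Kcnq1ot1 1.68, of Neat1 1.67 and of Lncpint 1.62, each still called and each smaller by over 1.5 times than with all droplets. That comparison rested on 131 and 162 nucleus-like and 70 and 169 comparison droplets. In it 11 of 13 nuclear noncoding RNAs rose and 0 fell, with a median of 1.501. Below, this limit is called the shallow range, and its values are given for each list whose median moved by over 1.5 times or turned sign. Limiting both classes to at least 4000 UMIs left 14 and 24 nucleus-like droplets, and the values were 3.07 for Dleu2, 3.48 for Kcnq1ot1, 2.44 for Neat1 and 2.56 for Lncpint.

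Protein-coding genes among the largest rises lay in very long loci. Nkain2, which encodes a protein that binds a sodium and potassium pump subunit and spans 1201 kb of chromosome 10 (31689310 to 32890462), had 399 and 349 CPM in nucleus-like droplets. It had 22.3 and 46.7 CPM in comparison droplets (log2 fold change 3.53, SE 0.16, adjusted p = 1.79e-99). Sgcz, a sarcoglycan gene of 1139 kb, had 127 and 151 CPM against 14.9 and 21.2, and its log2 fold change was 2.95. Nckap5 (917 kb) and Pde7b (327 kb), a cyclic AMP phosphodiesterase gene, had log2 fold changes of 2.84 and 2.76. In the shallow range these 4 genes were still called, with smaller values of 1.91, 1.75, 1.85 and 1.82.

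**Figure D3:**
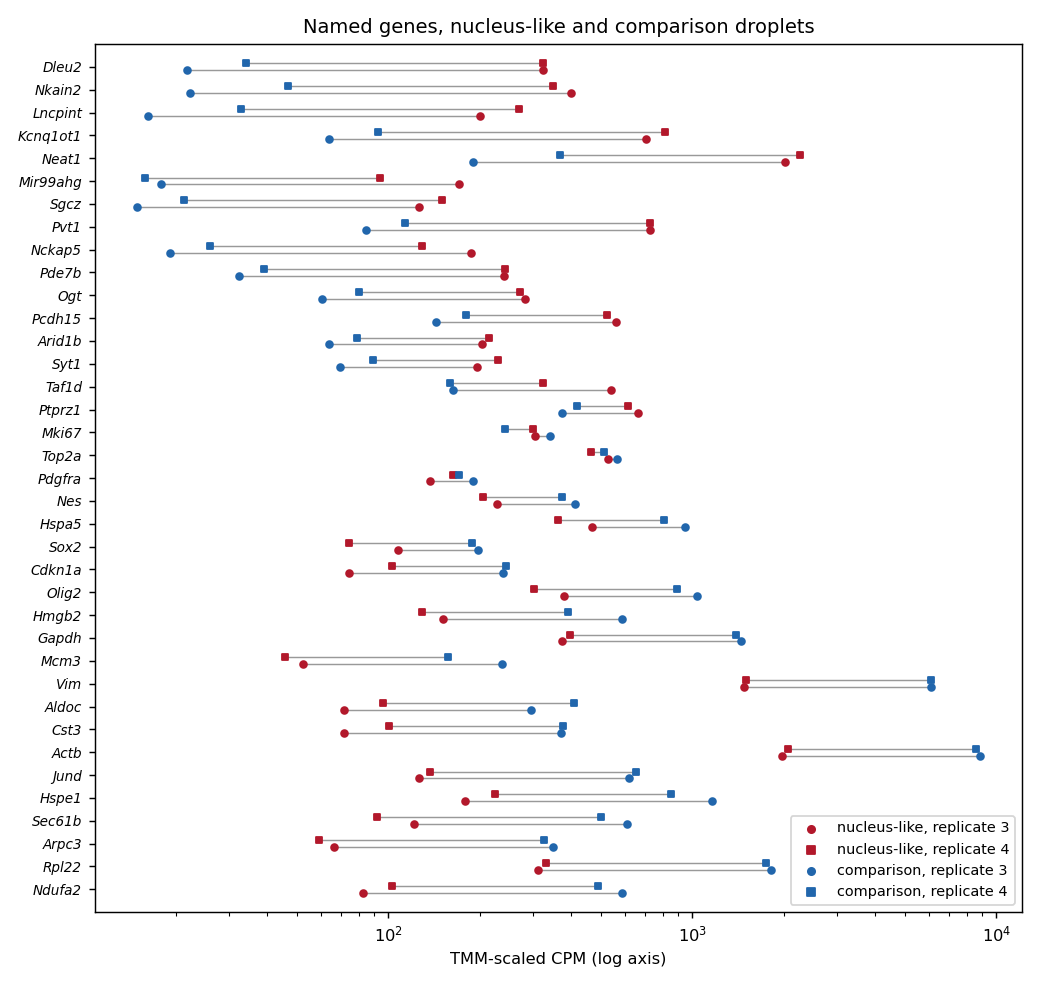
Points give TMM-scaled CPM (log axis) of 37 named genes in nucleus-like (red) and comparison (blue) droplets of GL261-GSCs replicates 3 (circles) and 4 (squares), and grey lines join the classes of a library. Dleu2, Nkain2 and the other genes at the top are higher in nucleus-like droplets, Mki67, Top2a and Pdgfra lie close to equal, and genes from Nes down are lower.

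Transcripts known to keep introns and wait in the nucleus, many of them for splicing factors and their kinases, rose as a group. Their share of UMIs was 1.63% and 1.38% in nucleus-like droplets and 0.655% and 0.687% in comparison droplets. Of 36 tested, 22 rose and 2 fell, and the median log2 fold change was 0.64. With scaling by total UMIs 34 rose and 0 fell (median 1.27), where all genes had a median of 0.59. Ogt, the enzyme that adds O-GlcNAc to proteins, had 281 and 271 CPM against 60.3 and 80.3 (log2 fold change 1.98, SE 0.16, adjusted p = 9.05e-34). Clk1, a kinase of splicing factors, had 118 and 113 CPM against 28.3 and 35.1, and its log2 fold change was 1.87. Luc7l2, a part of the U1 snRNP, had 1222 and 1048 CPM against 297 and 328, a log2 fold change of 1.86. The falls were in Snrnp70 (-0.53) and Srrm1 (-0.43), and 12 genes, Srsf2 and Hnrnpu among them, were not called.

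Host transcripts of small nucleolar RNAs did not move as a group. Of 15 tested, 5 rose and 5 fell, with a median log2 fold change of -0.09 that became 0.54 with scaling by total UMIs and 0.37 in the shallow range (3 of 14 higher and 3 lower). Taf1d, which also encodes a subunit of an RNA polymerase I factor, rose by 1.396 (539 and 323 CPM against 163 and 160). Snhg6 and Snhg3 fell by 1.86 and 1.67 on the log2 scale. Gas5 had 589 and 517 CPM against 680 and 814, a log2 fold change of -0.43 that was called.

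Genes for transcription factors and chromatin regulators went both ways. Of 27 tested, 11 rose (40.7%) and 4 fell (14.8%), against 28.7% and 30.9% of all genes. The median log2 fold change was 0.03, the same as the typical gene to within 0.1. In the shallow range 7 of 27 rose and 3 fell, with a median of 0.20. Arid1b, a subunit of a chromatin remodeller, had 204 and 214 CPM against 63.99 and 78.8, a log2 fold change of 1.55. Nfia, a glial transcription factor, had 193 and 120 CPM against 59.3 and 57.1, and its log2 fold change was 1.41. Smarca4 and Chd4, the ATPases of chromatin remodelling complexes, fell by 1.26 and 1.17 on the log2 scale. The genes that rose had a median span of 184 kb, those that fell 110 kb and those not called 87.2 kb.

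All ribosomal protein genes tested were lower. Of 92 genes, 83 passed the filter and 83 fell, with a median log2 fold change of -2.16 and values from -2.83 to -0.85. Rplp0, of the ribosomal stalk, had 1439 and 1918 CPM in nucleus-like droplets and 10009 and 8993 in comparison droplets. Rpl22 had 311 and 330 CPM against 1809 and 1745 (log2 fold change -2.47, SE 0.20, adjusted p = 6.74e-34). The smallest fall was in Rpl22l1, with 105 and 144 CPM against 221 and 229. With scaling by total UMIs 80 of the 83 fell, and in the shallow range 77 of 82, with a median of -1.39. Ribosomal protein genes have many processed pseudogenes, and the sources used here do not say how reads shared with them were counted.

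Nuclear genes of the respiratory chain were lower in nearly every case. Of 55 tested, 53 fell and 0 rose, with a median log2 fold change of -2.07, and their share of UMIs was 1.09% and 1.03% against 3.02% and 2.77%. In the shallow range 51 of 54 fell, with a median of -1.20. These mRNAs are made in the nucleus and translated in the cytoplasm, and the rule did not use them. Ndufa2, of complex I, had 82.6 and 103 CPM against 586 and 490 (log2 fold change -2.51, SE 0.19, adjusted p = 1.54e-38). Sdha, of complex II, had 107 and 91.7 CPM against 105 and 94.97 and was not called (log2 fold change -0.01, SE 0.19).

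Genes for the cytoskeleton, the endoplasmic reticulum, protein folding and glycolysis were lower as well. Of 39 cytoskeletal genes, 37 fell and 1 rose (median -1.67), and in the shallow range 24 of 38 fell and 0 rose (median -1.001). Actb, cytoplasmic actin, had 1976 and 2065 CPM against 8861 and 8566, a log2 fold change of -2.11. Vim, the intermediate filament protein vimentin, had 1475 and 1506 CPM against 6107 and 6109, and its log2 fold change was -2.03. The 1 gene that rose was Map4, a microtubule-associated protein gene spanning 152 kb, by 0.33.

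Of 44 endoplasmic reticulum genes, 39 fell and 0 rose (median -1.45). Sec61b, of the translocon, had 121 and 91.7 CPM against 611 and 501, a log2 fold change of -2.39. The chaperone gene Hspa5 had 468 and 362 CPM against 949 and 809 (log2 fold change -1.09, SE 0.17, adjusted p = 2.83e-10). Messages of secreted and surface proteins, which are translated at that membrane, mostly fell. Of 37, 23 fell (62.2%) and 4 rose (10.8%), against 30.9% and 28.7% of all genes (median -0.91). With scaling by total UMIs 18 fell and 12 rose (median -0.29), against 17.0% and 45.3% of all genes. Timp1 and Cst3, small secreted inhibitors of proteases, fell by 2.40 and 2.10 on the log2 scale. The rises were in Tmeff2 (1.14), Timp3 (0.77), Ptprz1 (0.69) and Itgav (0.55), and the rise of Ptprz1 was not called in droplets of 2000 to under 4000 UMIs (0.25, adjusted p = 0.448) or of at least 4000 UMIs (0.65, adjusted p = 0.135).

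Heat shock and proteasome genes fell in 20 of 22 cases and rose in 0 (median -1.56), and in the shallow range fell in 13 of 22 (median -0.81). Hsp90ab1, a cytosolic chaperone, had 2301 and 2673 CPM against 12660 and 12420. Glycolytic genes fell in 16 of 18 cases and rose in 0 (median -1.64). Gapdh had 372 and 397 CPM against 1449 and 1396, a log2 fold change of -1.89. Hk2 and Pfkp, at the regulated upper steps of the pathway, were not called (0.07 and 0.03).

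**Figure D4:**
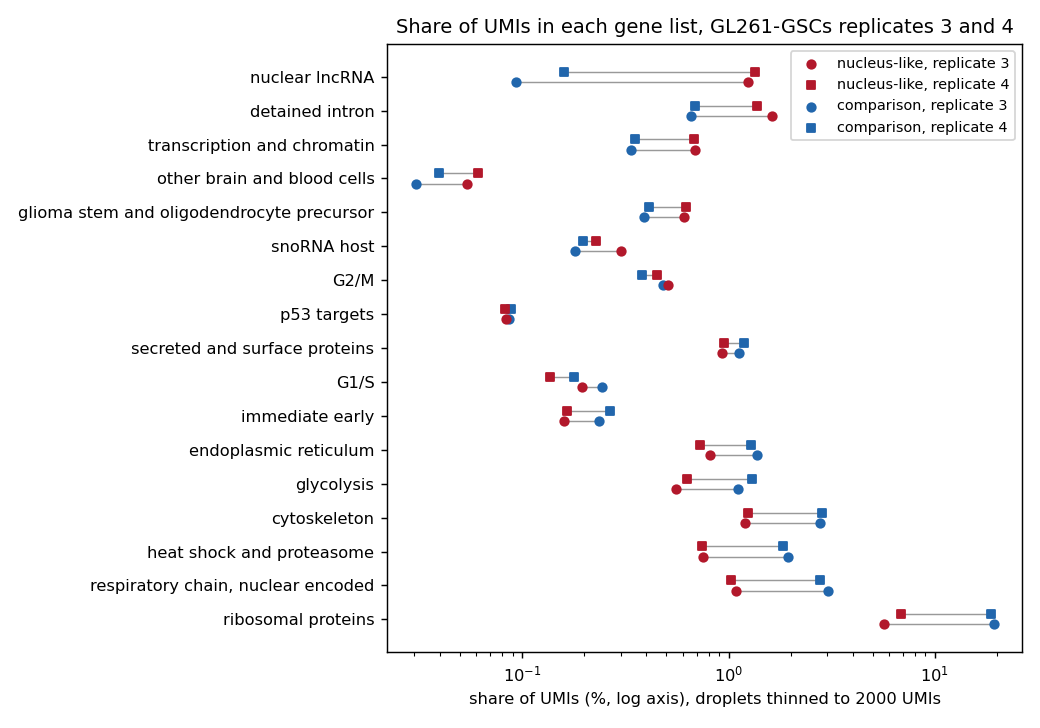
Points give the percentage of UMIs (log axis) in each gene list, after thinning to 2000 UMIs per droplet, for nucleus-like (red) and comparison (blue) droplets of GL261-GSCs replicates 3 (circles) and 4 (squares). The nuclear noncoding RNA list is at 1.25% and 1.34% against 0.094% and 0.160%, and ribosomal proteins are at 5.69% and 6.85% against 19.2% and 18.7%.

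Cell cycle genes did not behave alike. Of 30 genes of the G1/S transition, 20 fell and 1 rose (median -1.06), or 11 and 2 with scaling by total UMIs (median -0.44). In the shallow range 6 of 22 fell and 1 rose (median -0.42), where 18.7% of all genes were lower. Mcm3, a helicase subunit, had 52.3 and 45.8 CPM against 237 and 158. The gene that rose was Pola1, of DNA polymerase alpha, which spans 327 kb (0.75). Of 35 genes of G2 and mitosis, 7 rose and 14 fell, with a median of -0.17 that became 0.46 with scaling by total UMIs (15 higher, 8 lower). The shallow range had 4 of 33 higher and 3 lower, with a median of 0.18. Kif23, Ttk and Ndc80 rose by 1.34, 1.08 and 1.04, and Cks2, Hmgb2 and Ube2c fell by 1.91, 1.78 and 1.70 on the log2 scale. The median span of the genes that rose was 45.5 kb and of those that fell 9.7 kb. Mki67, the proliferation marker, had 303 and 299 CPM against 340 and 243, and Top2a 528 and 463 against 565 and 513. Neither was called (log2 fold changes 0.07 and -0.12), the direction of Mki67 differed between the libraries, and both were positive with scaling by total UMIs (0.69 and 0.50).

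Of 22 immediate early genes, 13 fell and 0 rose (median -0.90), or 8 and 2 with scaling by total UMIs (median -0.27). Jund had 127 and 137 CPM against 618 and 652, a log2 fold change of -2.26, while Fos fell by 0.70. Of 17 targets of p53, 7 fell (41.2%) and 2 rose (11.8%), with a median of -0.75. In the shallow range 2 of 12 fell and 0 rose (median -0.41), where 18.7% of all genes were lower. With scaling by total UMIs 5 rose and 4 fell (median -0.13), against 45.3% and 17.0% of all genes. Cdkn1a, the cyclin kinase inhibitor p21, had 74.3 and 103 CPM against 239 and 244, a log2 fold change of -1.44. Zmat3 and Sesn2 rose by 0.98 and 0.95.

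Genes of glioma stem cells and oligodendrocyte precursors went both ways, although their summed share was higher in nucleus-like droplets (0.607% and 0.625% against 0.391% and 0.414%). Of 25 tested, 7 rose (28.0%) and 11 fell (44.0%), against 28.7% and 30.9% of all genes, so the share that rose was near that of all genes. The median log2 fold change was -0.92 (the same with Hes5, which had 0 UMIs in nucleus-like droplets, at its bound). In the shallow range 4 of 16 rose and 4 fell, with a median of -0.35, against 15.7% and 18.7% of all genes. With scaling by total UMIs 8 rose and 8 fell (median -0.30), against 45.3% and 17.0% of all genes. Pcdh15, a protocadherin gene of precursors that spans 1550 kb, had 561 and 526 CPM against 144 and 180, a log2 fold change of 1.76. Sox6, a transcription factor gene of 568 kb, had 917 and 1163 CPM against 270 and 370, and Lhfpl3 had 545 and 557 CPM against 157 and 175. Olig2, the defining transcription factor of the lineage, with a span of 3.22 kb, had 380 and 301 CPM against 1033 and 890, a log2 fold change of -1.50. Olig1, Fabp7 and Sox4 fell by 1.64, 1.77 and 1.23 on the log2 scale. The genes that rose had a median span of 529.5 kb and those that fell 2.56 kb. Sox2 and Nes, stem cell markers, had log2 fold changes of -1.11 and -0.86, which in the shallow range were -0.61 and -0.44 and not called. Pdgfra, a receptor of growth factors, was not called (-0.25, SE 0.17), but was called lower in the shallow range (-0.71, adjusted p = 0.0175) and higher with scaling by total UMIs (0.37, adjusted p = 0.0475).

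Most markers of other cells of the brain and blood were too low to test. Of 24, 5 passed the filter, and the summed share of the list was 0.054% and 0.061% in nucleus-like droplets and 0.031% and 0.039% in comparison droplets. Ptprc, Aif1, Cx3cr1, C1qa and C1qb of leukocytes and microglia, and Cldn5 and Cdh5 of endothelium, had 0 UMIs in all 4 sums. The 2 that rose were Syt1, a synaptic vesicle gene of 513 kb (195 and 229 CPM against 69.2 and 88.8), and Mbp. Mog and Col1a1 were among those that fell. The median log2 fold change of the 5 was -0.67, and in the shallow range, with 1 of 4 higher and 1 lower, it was 0.44.

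Other single genes named above also moved by over 1.5 times with depth. In the shallow range the log2 fold changes were 1.602 for Pvt1, -1.16 for Gapdh, -1.53 for Sec61b, -0.95 for Olig2, 1.16 for Pcdh15, -1.24 for Mcm3 and -1.14 for Hmgb2, all still called. With at least 4000 UMIs in both classes, where 14 and 24 nucleus-like droplets remained, Ogt (1.41), Arid1b (0.73), Cst3 (-1.01) and Syt1 (0.98) were not called, and Ndufa2 (-1.08) and Jund (-1.23) were.

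Across all genes the direction went with the extent of the locus. Of 955 protein-coding genes spanning under 5 kb, 3.98% were higher and 70.9% lower, and the median log2 fold change was -1.51. Of 1386 spanning 100 kb or more, 59.7% were higher and 5.77% lower, with a median of 0.85. The intermediate classes lay between, at 10.9% higher and 46.7% lower for 5 to under 20 kb, and 27.5% higher and 23.2% lower for 20 to under 100 kb. Without the ribosomal protein genes the shortest class still had 68.7% lower. Exonic length moved with the change in the same way, and Spearman's rho over 10133 genes was 0.523 for span and 0.579 for exonic length. Both are descriptions across genes of the same droplets, which are not independent replicates. The shares also lean on the filter on low counts. Of these protein-coding genes, 625 passed its limit in both nucleus-like sums and not in both comparison sums (316 higher, 0 lower). Another 501 passed in both comparison sums and not in both nucleus-like sums (0 higher, 261 lower). The span classes were not recounted without them.

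Annotated gene types were counted in the same way. These counts lean on the filter on low counts, which asks for 5.68 CPM in at least 2 of the 4 sums, so that a rare RNA can pass only through the class where it is high. Of 193 lincRNA genes, 64.8% were higher. In the 100 of them past the limit in the comparison sums 54 were higher and 23 lower, with a median of 0.92. Of these 100, 18 did not pass in both nucleus-like sums (0 higher, 12 lower). Of 398 genes in the class TEC, gene models still to be tested experimentally, 374 passed in the nucleus-like sums and not in the comparison sums, and their direction is no result. In the 22 past the limit in the comparison sums 19 were higher and 0 lower, with a median of 2.76. Of 92 processed pseudogenes, copies of spliced mRNA, 59.8% were lower, but 45 passed in both comparison sums and not in both nucleus-like sums. In the 42 past the limit in the nucleus-like sums 17 were higher and 20 lower. That count holds 17 pseudogenes that did not pass in both comparison sums (13 higher, 0 lower), so its near balance is no result. Whether reads in introns were counted was not stated in the sources used here.

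**Figure D5:**
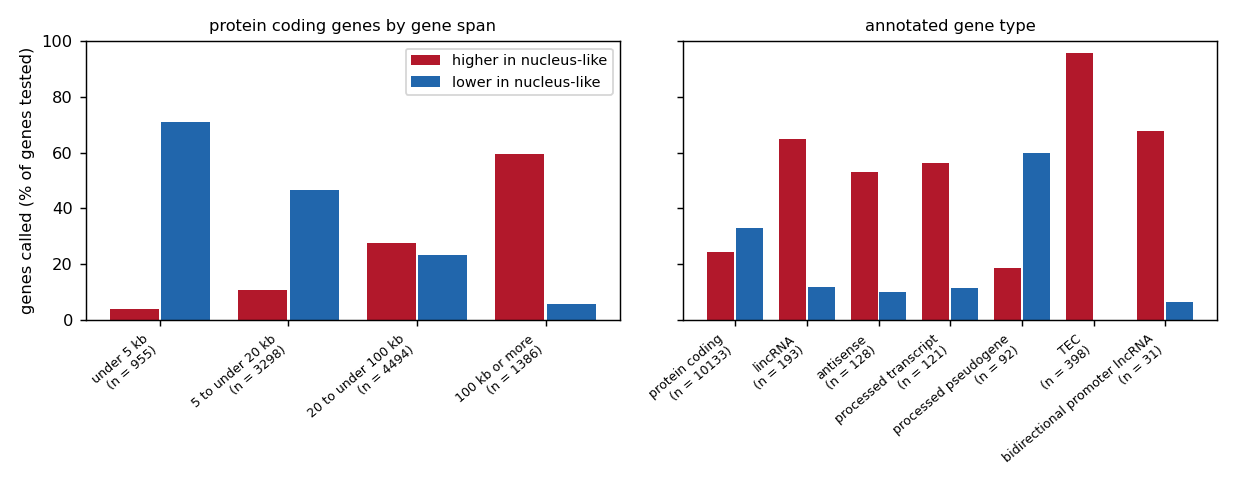
Bars give the percentage of tested genes called higher (red) or lower (blue) in nucleus-like droplets of GL261-GSCs replicates 3 and 4, by gene span for protein-coding genes (left) and by annotated gene type (right), with the number of genes in parentheses. Genes higher in nucleus-like droplets rise from 3.98% under 5 kb to 59.7% at 100 kb or more, and are at 95.7% in the class TEC, where 374 of 398 genes passed the filter in the nucleus-like and not in the comparison sums. The span classes also hold genes that passed in the sums of a single class.

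The members were chosen with earlier results of these data known, so the other libraries are no independent check of the class. The same Malat1 and mitochondrial limits found nucleus-like droplets in these libraries. They numbered 140 in GL261 replicate 1 (2.69% of barcodes, exact binomial 95% interval 2.27% to 3.17%), 52 in GL261 replicate 2 (0.994%), 39 in GL261-GSCs replicate 1 (0.845%) and 51 in replicate 2 (0.825%). Replicates 3 and 4 had 1.81% (1.53% to 2.13%) and 3.98% (3.43% to 4.58%). The intervals cover counting error only, and the order is a description. The shares hung on the minimum depth. Among barcodes with at least 4000 UMIs they fell to 0.210% and 0.748% in replicates 3 and 4, and to 0.589% in GL261 replicate 1. Among those under 4000 UMIs they were 9.86% and 11.01% in replicates 3 and 4 and 18.3% in GL261 replicate 1, so that the order of replicate 4 and GL261 replicate 1 turned with the depth.

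In the 3 other libraries with at least 50 droplets of each class, GL261 replicates 1 and 2 and GL261-GSCs replicate 2, 5726 of 10788 genes were called (53.1%), 2697 higher and 3029 lower. Of 10153 genes tested in both sets of libraries, 6064 were called in replicates 3 and 4 and 5491 in the others. Those called in both were 4644, and 4640 of them had the same direction. They made up 76.6% of the first list, where 53.1% of all genes tested in the other libraries were called. Of the second list they made up 84.6%, where 59.6% of all genes tested in replicates 3 and 4 were called. Dleu2, Kcnq1ot1, Lncpint and Neat1 had log2 fold changes of 3.70, 3.36, 3.51 and 3.71 there. Nuclear noncoding RNAs rose in 13 of 14 cases and fell in 0 (median 2.86), and ribosomal protein genes fell in 82 of 83 (median -2.16). Without GL261 replicate 1, which held the most nucleus-like droplets of the 3, 3735 genes were called.

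The class difference itself was compared between libraries by an interaction test. Between GL261-GSCs replicates 3 and 4 and replicate 2, edgeR's quasi-likelihood test called 0 of 11046 genes (0.0%), with 598 at an unadjusted p under 0.05 and a smallest adjusted p of 0.490, and 11 were called without thinning. This comparison had a single library of 51 nucleus-like droplets on one side. It does not show that the cultures were alike.

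Between replicates 3 and 4 and the serum-grown GL261 libraries, 64 of 10892 genes were called (0.588%), 17 with a higher (0.156%) and 47 with a lower (0.432%) nucleus-like excess in GL261-GSCs. Without thinning, 114 genes were called. Snhg3, a snoRNA host, had log2 ratios of -1.65 and -1.66 in GL261-GSCs replicates 3 and 4, and of 0.87 and 0.80 in the GL261 libraries. The difference was -2.48 (SE 0.25), and its adjusted p was the smallest of all, 2.22e-11. Of 15 snoRNA hosts, 7 differed in this direction and 0 in the other, and the median difference of the list was -1.13, against -0.03 for all genes. Gas5 had log2 ratios of -0.21 and -0.65 in GL261-GSCs and 1.04 and 1.398 in GL261, and Snhg4 0.49 and 0.21 against 2.10 and 1.97. Detained intron transcripts differed in 7 of 36 cases, all with the smaller excess in GL261-GSCs, and 0 in the other direction (median -0.41). Srsf2, a splicing factor, had log2 ratios of -0.16 and -0.12 against 1.19 and 1.19. Endoplasmic reticulum and secreted and surface genes had the opposite sign, with 2 of 44 and 2 of 37 genes called, 0 in the other direction, and medians of 0.43 and 0.45. In ribosomal protein genes 1 of 83 differed, and the median difference was -0.01. The nucleus-like droplets of the 2 groups also differed in Malat1, with medians of 5.56% and 5.38% of UMIs in the GL261 libraries against 2.68% and 2.37% in GL261-GSCs replicates 3 and 4. In GL261 replicate 1 the share of snoRNA hosts was 0.214%, 0.457% and 0.614% in droplets with Malat1 at 1.5% to under 2%, 2% to under 3% and at least 3%, and that of detained intron transcripts 0.976%, 1.55% and 2.05% (14, 22 and 104 droplets). In GL261-GSCs replicates 3 and 4 the snoRNA host shares were 0.297%, 0.289% and 0.321%, and 0.236%, 0.231% and 0.238%, over the same ranges, and the detained intron shares 1.32%, 1.47% and 1.83%, and 1.03%, 1.37% and 1.62%. In the highest range, the snoRNA host share in GL261 replicate 2 was 0.525%. That range has no upper limit, and Malat1 was not matched within it. Over all nucleus-like droplets the upper quartiles of Malat1 were 8.07% and 8.19% in GL261 replicates 1 and 2. In GL261-GSCs replicates 3 and 4 they were 4.11% and 3.29%. The part of Malat1 in the interaction was not tested. Medium, derivation and culture differ together between these groups and cannot be told apart.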

How the data were processed

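Cell Ranger 4 wrote the deposited UMI counts, per the file headers, unnormalized and for 54446 genes and 737280 unfiltered barcodes per library. The genome build is mm10 per the submitters' processing notes. The counting settings were not given in these sources. Genes were matched to GENCODE M21 (GRCm38), which held 11192 (99.9%) of the 11198 genes tested. The members and gene lists were chosen with earlier results of these data known.

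Droplets were thinned to 2000 UMIs without replacement and summed per library and class, and doublets were not removed. Cells were not treated as replicates. The sums were tested with edgeR 4.0.16 (glmQLFit, glmQLFTest) in R 4.3.3 with TMM, filterByExpr, the library as block and Benjamini-Hochberg adjustment, 2-sided. The 2 sums of a library share its culture, capture and free RNA, which is why they are paired. The common dispersion was 0.00679, with 1 residual degree of freedom per gene. The prior degrees of freedom were infinite, so each gene was tested on spread shared between genes and not on its own. Each SE was derived from the log2 fold change and its F statistic (absolute change over root F). Exact binomial and counting intervals were computed with scipy 1.17.1, and the sign-flip permutations were enumerated in Python 3.11.15. DESeq2 1.42.0 and limma 3.58.1 were alternatives. The test was tried on simulated counts.

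Named were the 10 largest rises and 10 largest falls among called genes with the same direction in both libraries and an average log2 CPM of at least 5, predicted genes left out, 14 fixed genes, and from each list the gene of lowest p. Further list members were chosen after their values were seen.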

Additional observations from a re-analysis of the deposited data

Results flagged for a closer look

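After thinning, the immediate early list made up 0.217% of UMIs in nucleus-like droplets of GL261-GSCs replicate 1 (39 droplets), apart from the 0.160% to 0.164% of the other 3 GL261-GSCs libraries; 35 such values were examined, of which chance sets apart about 1 in 20. Unthinned, the shares in GL261-GSCs replicates 1 to 4 were 0.301%, 0.223%, 0.167% and 0.169%, and replicate 1 no longer stood apart in this way. The difference between nucleus-like and comparison droplets itself differed between GL261-GSCs replicates 3 and 4 and GL261 in 64 genes by edgeR's interaction test. Among them were Ogt, at -1.12 (SE 0.21, adjusted p = 0.000516) on the log2 scale, and Taf1d, at -1.12 (SE 0.20, adjusted p = 0.000305). The log2 ratio of Ogt was 2.20 and 1.74 in replicates 3 and 4 and 3.13 and 3.11 in the GL261 libraries, and that of Taf1d was 1.72 and 1.01 against 2.60 and 2.46.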

How the results depend on the processing

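Under some alternative, 17 of 47 named genes lost their call. Nfkbib, Smim27, Isg15 and Lsm10 were not tested at 2000 to under 4000 UMIs. Of the 47 genes, 44 kept their sign under every alternative in which they were tested. The exceptions were Pdgfra with total UMI scaling (0.37), Top2a with that scaling (0.50) and at 2000 to under 4000 UMIs (0.20), and Mki67 without a low-count filter (-0.14), unthinned (-0.17), with mitochondrial UMIs under 0.5% (-0.023), with comparison droplets up to 10% (-0.42) and without replicate 4 (-0.19; 0.30 without replicate 3). The cause was not tested. Calls numbered 3914 with DESeq2 (1833 higher, 2081 lower), 1064 at 4000 UMIs or more (281, 783; fewer droplets) and 2363 at 2000 to under 4000 UMIs (1078, 1285), against 6675. Without the library block 6270 genes were called in replicates 3 and 4 and 3698 in the other libraries. With the block, leaving out 1 of the other libraries gave 3735 to 5152 calls, against 5726. With 1 of replicates 3 and 4 left out no spread remains, so no count was made. Unthinned, the interactions called 11 and 114 genes. Nucleus-like shares in replicates 3 and 4 were 0.210% and 0.748% at 4000 UMIs or more, 1.33% and 2.56% at Malat1 of 2% or more, and in replicate 4 2.03% under 0.5% mitochondrial UMIs. The difference in UMI share, in percentage points, was 1.11 unthinned and 0.72 at 4000 UMIs or more for nuclear noncoding RNAs (1.17 as reported), -1.45 there for the respiratory chain (-1.84) and -8.41 for ribosomal proteins (-12.7).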

Other observations

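Genes with the largest falls were short and of mixed function, and several rested on few UMIs in nucleus-like droplets. Rpl23a had 19.3 and 39.3 CPM in nucleus-like droplets of replicates 3 and 4 against 234 and 202 in comparison droplets (log2 fold change -2.83, and -1.09 in droplets of 2000 to under 4000 UMIs). Pcbd1, a pterin enzyme, had 11.0 and 21.8 CPM against 120 and 130 (not called at 4000 UMIs or more, -0.53, adjusted p = 0.5996), and Hras, a small GTPase, 13.8 and 17.5 CPM against 126 and 105. The log2 fold change of Hras was -2.86, but -0.85 and not called in droplets of 2000 to under 4000 UMIs (adjusted p = 0.182). Nudt2 had 9 UMIs, Isg15 5, Lsm10 4 and Adprh 10 in nucleus-like droplets. Nfkbib, an inhibitor of NF-kappa-B, had 3 UMIs against 368 in comparison droplets, a ratio of 12.7 (95% counting interval 4.30 to 61.6). Rprm and Smim27 also had 3 UMIs each, with ratios of 10.7 (3.64 to 52.3) and 9.97 (3.38 to 48.6).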
